A study of Mus musculus with 6 samples.

Results

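Small RNAs that fold into fixed structures and work inside RNA-protein machines are made from short genes, and 10 such genes were examined in mouse embryonic stem cells for regions bound by WDR5 or marked by H3K4me3. They are Rn7sk, Rn7s1 (also written Rn7sl1), Rmrp, Rpph1, Terc, Rny1, Rny3, Rnu11, Rnu12 and Vaultrc5, taken by name, and all 10 were found among the 49595 annotated genes used. The regions came from chromatin immunoprecipitation sequencing (ChIP-seq), in which crosslinked DNA is pulled down with an antibody and places of read enrichment are listed as peaks. The cells carried a GFP knock-in at Rx, were kept in 2i+LIF medium, and lacked endogenous Wdr5 and p53 in both lines. The WT line (WT rescue in the plots) had been given back wild-type WDR5, and the mutant line (mutant rescue in the plots) WDR5 with the substitutions S91K and Y191F, numbered as in the labels. Cells were fixed for 10 min in 1% PFA. Each line had 1 WDR5 library, 1 H3K4me3 library and 1 input library, so differences between the lines cannot be set against replicates and were not tested. The 2 input libraries were not analysed here. The labels name no promoter for the rescue constructs and do not say whether a line is a single clone.

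The 4 deposited lists hold 11095 WDR5 regions in the WT line and 26888 in the mutant line, and 71695 and 74305 H3K4me3 regions. Each list comes from 1 library, whose depth is unknown here since the lists give no number of reads. Of the WDR5 regions, 10.8% and 4.83% reached a −log10 q of 2 or more. Here q is the authors' p adjusted for the number of places tested, so most entries in these lists are weak. Peak lists cannot show whether Wdr5 and Trp53 were deleted. H3K4me3 lay within 1 kb of an end of 9 of 10 naive stem cell marker genes in both lines, 7 and 4 of 8 feeder fibroblast markers and 5 and 4 of 5 neural markers. The mark occurs at silent lineage genes as well, so these counts do not identify the cells.

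The RNAs fall into groups by the machine they serve. Rn7sk encodes 7SK RNA, which holds the elongation kinase P-TEFb inactive, and Rn7s1 encodes 7SL RNA, the scaffold of the signal recognition particle that brings secreted proteins to the endoplasmic reticulum. Rpph1 and Rmrp encode the RNA parts of RNase P and RNase MRP, which cut precursors of transfer RNA and of ribosomal RNA. Terc is the template RNA of telomerase. Rny1 and Rny3 make Y RNAs, which bind the Ro60 protein, and Vaultrc5 makes the RNA of the vault particle. Rnu11 and Rnu12 encode the U11 and U12 RNAs of the minor spliceosome, which removes a rare class of introns. Terc, Rnu11 and Rnu12 are transcribed by RNA polymerase II and the other 7 by RNA polymerase III, whose promoters can lie upstream of the RNA or inside it. WDR5 is a subunit shared by the KMT2/SETD1 enzymes that methylate lysine 4 of histone H3. Its trimethylated form, H3K4me3, marks many polymerase II promoters and the surroundings of active polymerase III genes.

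Several of these genes have a close neighbour that transcribes other RNA. The members are 101 bp (Rny3) to 397 bp (Terc) long, and none lies inside a protein-coding gene. In 4 of 10 the nearest annotated end of a protein-coding gene is within 1 kb. These are Rn7s1 on chromosome 12 (69159295 to 69159593, mm10), 109 bp from the ribosomal protein gene Rps29, and Rpph1 on chromosome 14 (50807447 to 50807771), 126 bp from the DNA repair gene Parp2. The remaining 2 are Rnu12 on chromosome 15 (83149645 to 83149794), 267 bp from Poldip3, and Rmrp on chromosome 4 (43492785 to 43493059), 281 bp from Ccdc107. Rn7sk, on chromosome 9 (78175302 to 78175633), is 3188 bp from Cilk1 but 281 bp from the long non-coding RNA gene C920006O11Rik. Vaultrc5 is 2103 bp from Zmat2, and Rnu11 on chromosome 4 (132270079 to 132270186) is 4169 bp from Taf12. Rny1 (47788070 to 47788180) and Rny3 (47781624 to 47781724), both on chromosome 6, are 7961 and 14417 bp from Pdia4. Terc on chromosome 3 (96414437 to 96414833) is the most isolated, 18955 bp from BC107364.

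For 3 members the sequence between the RNA gene and its neighbour can be shown, because the neighbour's RefSeq promoter window (250 bases before and 50 after its annotated start, GRCm38.p6, plus strand, 5′ to 3′) falls there. These stretches are printed because the H3K4me3 regions of Rn7sk, Rmrp and Rpph1 begin in or just before them. The promoter table places the starts of Parp2 and Ccdc107 at 145 bp from Rpph1 and 306 bp from Rmrp, slightly inside the gene bounds given above. Capitals mark matches to 7 short motifs searched on both strands: TATAAA (a form of the TATA box), CCAAT (the box bound by NF-Y), ATTTGCAT (the octamer of POU factors), CACGTG (the E-box of MYC-type factors), GGGCGG (a GC box), the ZNF143 core motif and TTCGANNC (the core of the polymerase III B box).
Parp2 window, chr14:50807666-50807965, which starts with the 106 bases at the higher-coordinate end of Rpph1: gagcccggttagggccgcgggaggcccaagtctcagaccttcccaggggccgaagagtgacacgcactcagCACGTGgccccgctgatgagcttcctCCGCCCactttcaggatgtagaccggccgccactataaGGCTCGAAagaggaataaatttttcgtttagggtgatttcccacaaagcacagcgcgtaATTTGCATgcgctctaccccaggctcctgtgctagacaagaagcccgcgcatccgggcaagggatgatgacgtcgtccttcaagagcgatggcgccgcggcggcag
Ccdc107 window, chr4:43493115-43493414, which starts 56 bp from Rmrp: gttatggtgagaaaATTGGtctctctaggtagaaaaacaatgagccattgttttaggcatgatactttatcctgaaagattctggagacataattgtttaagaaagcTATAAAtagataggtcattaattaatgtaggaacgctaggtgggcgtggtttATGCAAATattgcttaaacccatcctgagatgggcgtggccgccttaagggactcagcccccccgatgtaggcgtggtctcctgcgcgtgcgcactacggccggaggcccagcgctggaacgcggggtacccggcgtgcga
C920006O11Rik window, chr9:78175664-78175963, which starts 31 bp from Rn7sk: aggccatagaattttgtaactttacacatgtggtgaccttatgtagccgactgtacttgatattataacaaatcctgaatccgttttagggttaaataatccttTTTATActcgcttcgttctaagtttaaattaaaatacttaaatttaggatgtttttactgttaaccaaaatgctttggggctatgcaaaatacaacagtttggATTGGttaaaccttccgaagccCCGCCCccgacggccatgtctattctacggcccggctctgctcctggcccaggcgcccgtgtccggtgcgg
The octamer was present in the Parp2 window, 89 bp from Rpph1, and in the Ccdc107 window, 215 bp from Rmrp, and 1.74% of the 32851 promoter windows in the table hold it. Each of the Ccdc107 and C920006O11Rik windows held a TATAAA (13.6% of windows), at 163 bp from Rmrp and 135 bp from Rn7sk, and a CCAAT (37.4%). The Parp2 window held a CACGTG (7.15%) within Rpph1, a GGGCGG (35.7%) also within Rpph1, and a TTCGANNC (3.31%) 30 bp outside it. C920006O11Rik's window also held a GGGCGG, and the ZNF143 core (1.01%) was in none of the 3. The windows were 60.0%, 49.3% and 43.0% G and C for Parp2, Ccdc107 and C920006O11Rik, against a median of 52.7% over the table. A match describes these letters only and does not show that a factor binds.

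H3K4me3 regions stood close to nearly all of these RNA genes in both lines. A region lay within 1 kb of 9 of 10 members in the WT line list and of the same 9 in the mutant line list (exact binomial interval of the share, 55.5 to 99.7% in each), and all of them already within 200 bp. Rnu11 was the exception. Over all annotated genes the share with a region within 1 kb was 51.8% and 51.3%, and within 200 bp 49.6% and 49.0%. It was 76.8% and 76.3% for protein-coding genes, 43.0% and 42.3% for other non-coding genes, and 24.0% and 24.0% for the 2392 other non-coding genes of at most 500 bp that lie outside protein-coding genes. Among the short genes the share differed with position. Of 129 such short genes within 1 kb of a protein-coding end, 80.6% and 79.1% had H3K4me3, beside 4 and 4 of the 4 members in that position. Of the 2263 farther away 20.8% and 20.8% did, beside 5 and 5 of the 6 members. Transfer RNA genes among these short genes had higher shares. In each line 42 of 42 near a protein-coding end and 228 of 327 farther away (69.7%) had a region. All 7 polymerase III members had a region in both lines, as did Terc and Rnu12 among the 3 polymerase II members.

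**Figure D1:**
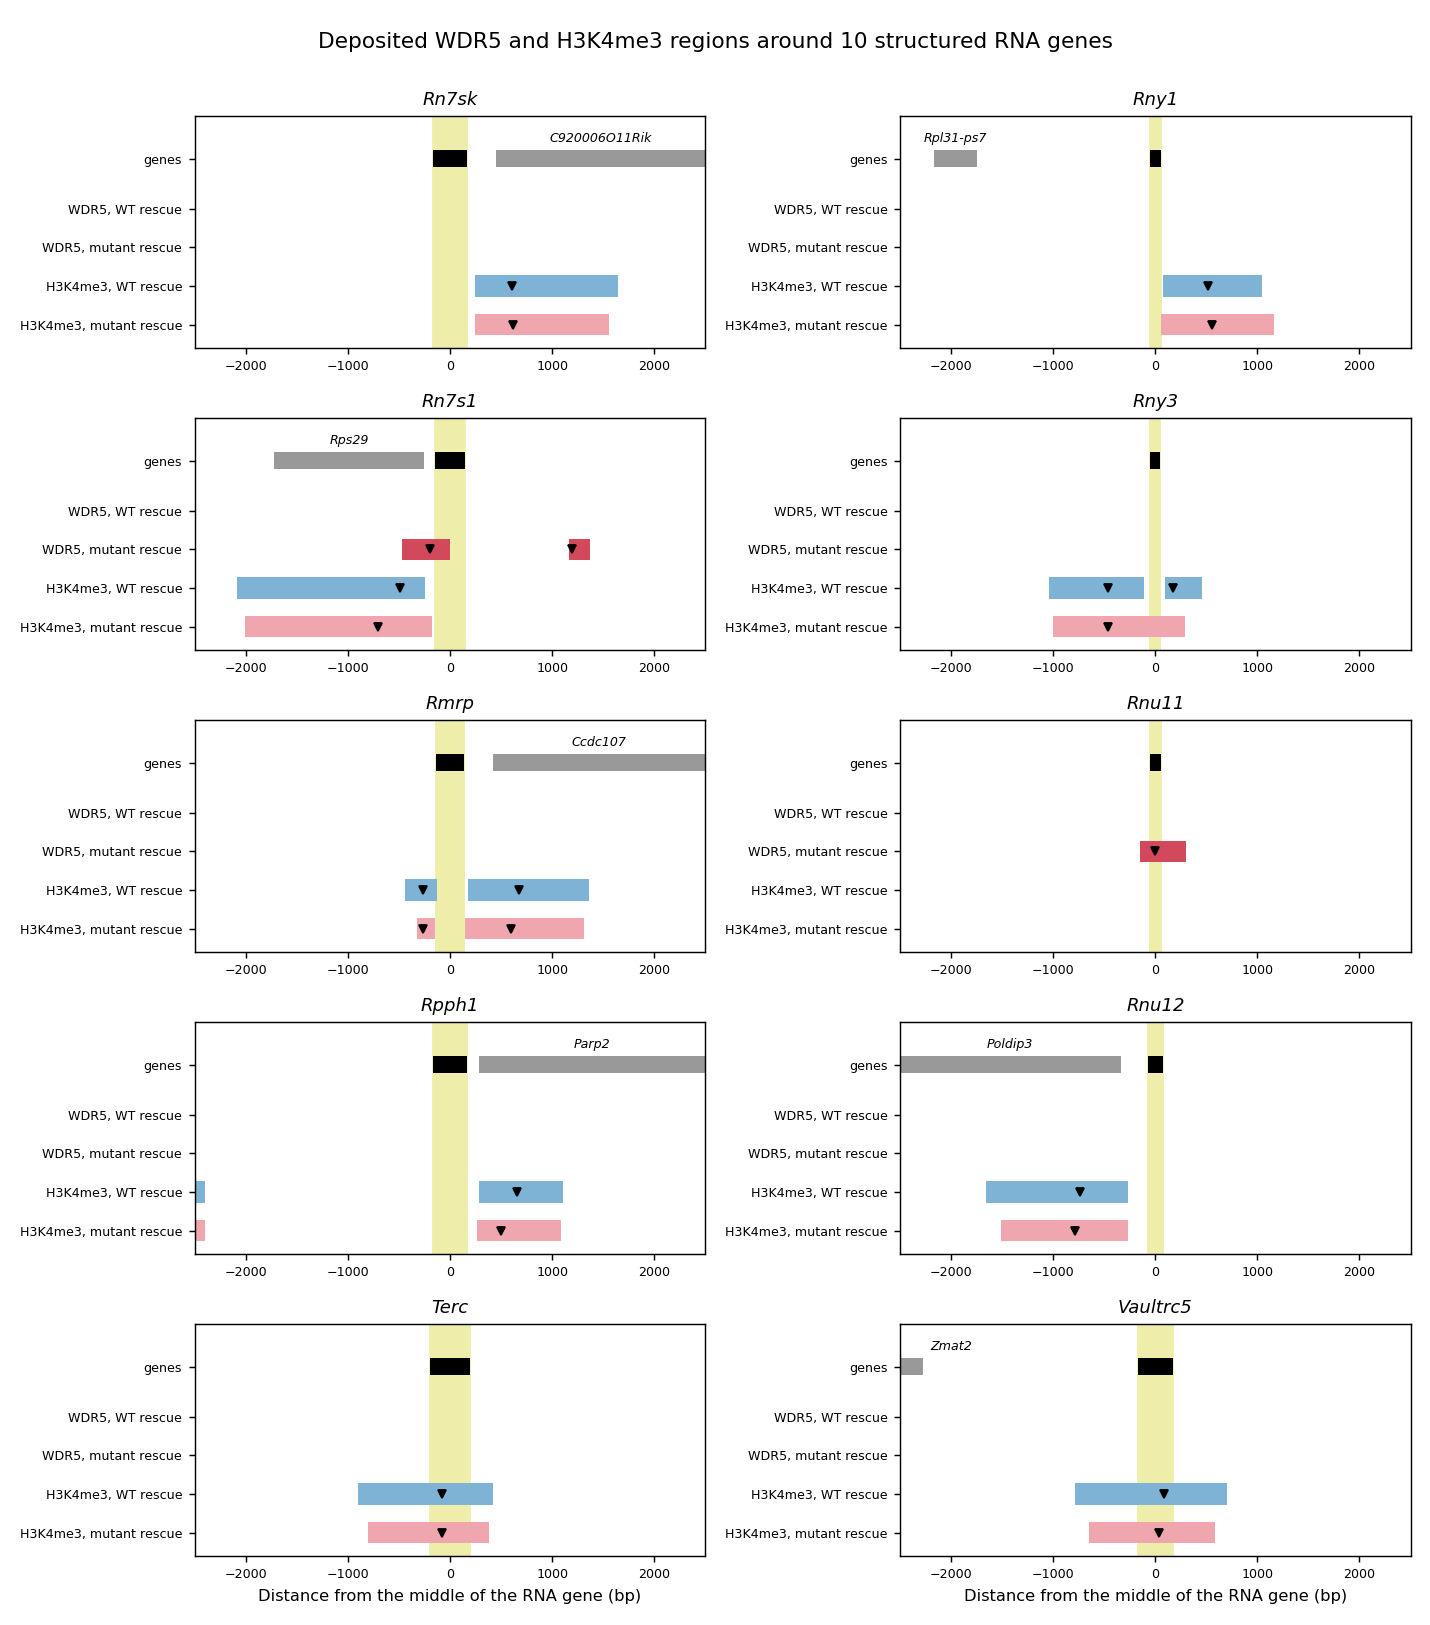
Deposited regions around each of the 10 RNA genes, drawn against distance from the middle of the gene in bp. Black and grey bars are the RNA gene and other annotated genes, coloured bars are regions of the 4 lists, triangles are summits and the yellow band is the RNA gene; most H3K4me3 regions lie beside the band, up to 197 bp from it, and WDR5 regions appear at Rn7s1 and Rnu11 in the mutant line alone.

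The H3K4me3 regions nearest to most members lay beside the RNA gene, at distances up to 197 bp, and left all or nearly all of it uncovered. In the WT line 6 of the 9 members with a region had no base inside an H3K4me3 region and 7 had under 10% of their length inside, and in the mutant line the counts were 5 and 6. Rmrp shows the pattern on both sides, though its lower-coordinate flanks were weak. Its flanking regions ended at 43492795 and resumed at 43493102 in the WT line. That gap of 306 bp left 11 bp of the 275 bp gene covered. In the mutant line the gap was 291 bp, from 43492778 to 43493070, around the whole gene. The lower-coordinate flanks had folds of 2.35 (WT line) and 1.83 (mutant line), reached by 93.23% and 98.74% of the regions of the lists. At Rny3 the WT line list had a gap of 210 bp around the 101 bp gene, between regions ending at 47781563 and starting at 47781774. The higher-coordinate one was weak too, with a fold of 1.72, reached by 99.23% of the regions of that list. The mutant line list had a single region there, from 47780677 to 47781967, that covered the gene, but its summit lay at 47781210, 1 bp from the WT line summit and 414 bp outside the gene. Rny1 had its region on the higher-coordinate side, starting 19 bp away in the WT line and overlapping the last 4 bp of the gene in the mutant line.

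Terc and Vaultrc5 were the members with the opposite arrangement. Terc lay wholly inside a region of 1315 bp in the WT line and of 1179 bp in the mutant line, with the summit at 96414561 in both. Vaultrc5, on chromosome 18 (36801763 to 36802107), lay wholly inside regions of 1492 and 1237 bp, with summits at 36802024 and 36801976, inside the annotated gene. Summits inside the gene were seen at 2 of 9 members in each line. Among the 369 transfer RNA genes outside protein-coding genes, 270 and 270 had H3K4me3 within 1 kb, 46.7% and 44.4% of these had under 10% of their length inside a region, and 0 and 0 had the summit inside. Small nucleolar RNA genes with a region had 33.3% and 40.0% under 10%, and microRNA genes 38.3% and 41.4%. Of the named spliceosomal and 7SL RNA genes outside protein-coding genes, 5 had a region in each line, and 80.0% and 80.0% of these (4 of 5) had under 10% inside, so the members were not alone in this. With 9 members the shares of 77.8% and 66.7% rest on few genes, and no test of the difference was made. Gene length was not matched across these classes, and a longer gene has more room to hold a summit. Terc (397 bp) and Vaultrc5 (345 bp) are the longest members. 7SK, 7SL and Y RNA genes belong to families with many similar copies in the genome, and how reads that match several places were treated is not given in the sources used here. Its part in the uncovered stretches was not tested.

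**Figure D2:**
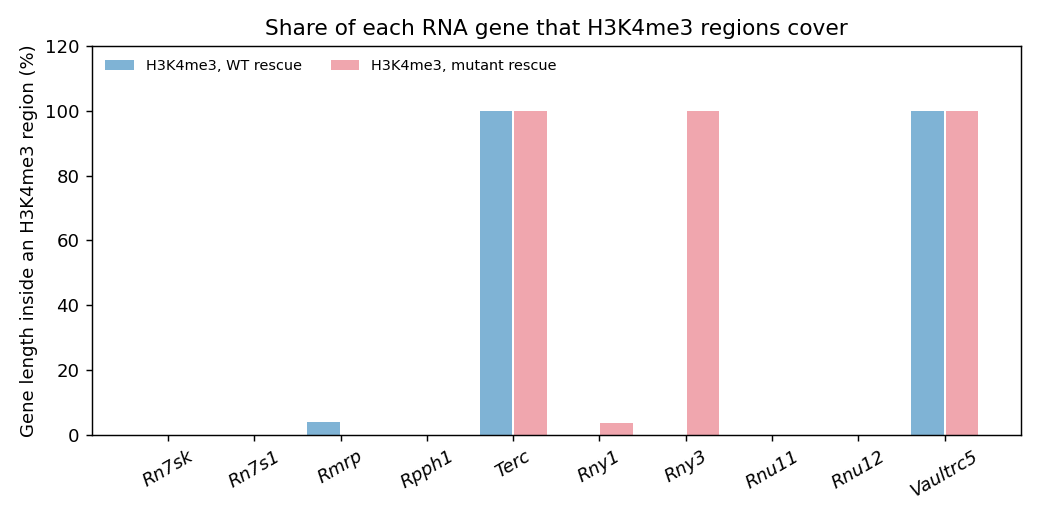
Percent of each RNA gene's length that lies inside H3K4me3 regions, for the WT line (blue) and mutant line (pink) lists. Terc and Vaultrc5 are covered completely in both, Rny3 in the mutant line alone, and the remaining members at 0 to 4.0%.

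At the members with a close neighbour, the summit of the strongest H3K4me3 region fell on the neighbour's side. Rmrp alone of these also had a weak region on its other side, with summits 124 and 127 bp from the gene. The Rpph1 regions started 118 bp (WT line) and 98 bp (mutant line) from the gene, at bases 224 and 204 of the Parp2 window printed above, and their summits were 351 and 194 bp past the Parp2 start. The Rmrp regions of highest fold began 13 and 45 bp before the Ccdc107 window and peaked 229 and 156 bp past the Ccdc107 start. The Rn7sk regions began 84 and 81 bp from the gene, at bases 54 and 51 of the C920006O11Rik window, and peaked 165 and 169 bp past the start of that long non-coding RNA. At Rn7s1 the regions overlapped the adjacent end of Rps29 and stopped 98 and 28 bp short of the RNA gene. At Rnu12 they overlapped the adjacent end of Poldip3 and stopped 197 and 189 bp short, just inside the 200 bp window. For these 5 members the region on the neighbour's side cannot be assigned to the RNA gene rather than to its neighbour from a peak list. Terc, Vaultrc5, Rny1 and Rny3 had no annotated gene other than themselves within 1 kb, and their regions lay at least 1489 bp from any protein-coding end.

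Regions beside different members differed in strength within each list. By the authors' fold enrichment, the strongest H3K4me3 region within 1 kb had a median over the 9 members of 9.97 (4.19 to 14.7) in the WT line list and 10.6 (4.2 to 14.8) in the mutant line list. The medians over all regions of those lists were 4.81 and 4.13. These count every region wherever it lies, so they are not a like measure. The strongest region near other genes was not summarised here. Rn7sk, with the 7SK RNA, had a fold of 14.7 in the WT line and 12.7 in the mutant line, and Rmrp 14.3 and 13.7. Rnu12, one of the minor spliceosome genes, had 13.5 and 14.8, and its −log10 p of 775 and 845 was reached by 0.2% and 0.14% of the regions of the lists. These 3 stood highest in both lists.

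Terc followed in the WT line with a fold of 10.4, and had 10.6 in the mutant line, below Vaultrc5. Rny1 had 9.97 and 8.16, and Rny3, on the same chromosome, 8.6 and 8.63. Vaultrc5 had 9.34 and 10.8. Rn7s1 had 7.59 and 9.34 at the Rps29 side. Rpph1 was lowest in both, at 4.19 and 4.2, near the list medians. With 1 library per line the spread of such values is unknown, so no neighbours in this order can be said to differ. Between the lines, summits of the strongest region were 0 to 217 bp apart, with a median of 43 bp, and the largest distance was at Rn7s1.

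**Figure D3:**
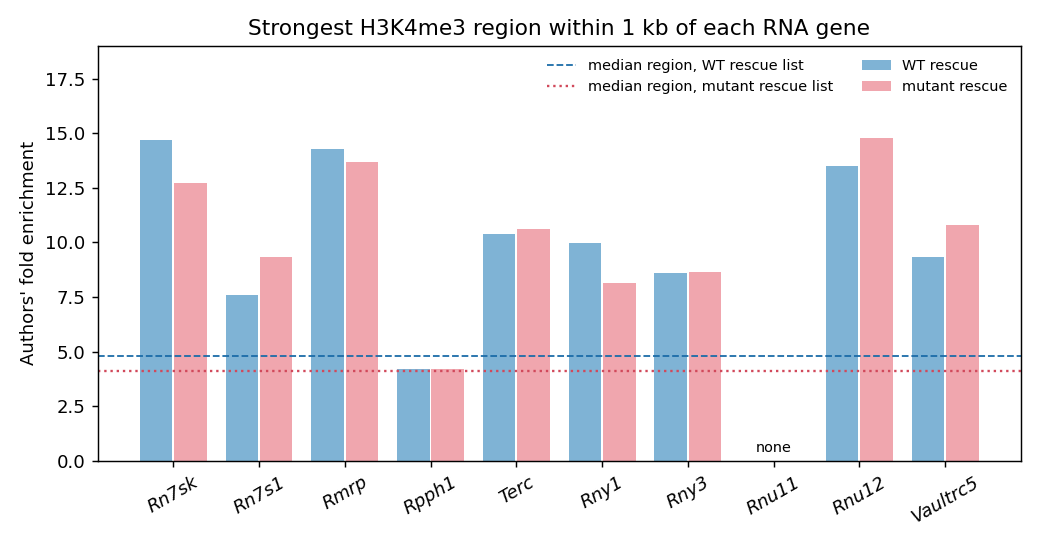
Authors' fold enrichment of the strongest H3K4me3 region within 1 kb of each RNA gene, for the WT line (blue) and mutant line (pink) lists, with the median of all regions of each list as dashed and dotted lines. Rn7sk, Rmrp and Rnu12 are highest, Rpph1 is near the medians of 4.81 and 4.13, and Rnu11 has none.

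Rnu11 differed from the rest in having no H3K4me3 close by. The nearest regions were 3268 bp away in the WT line and 3315 bp in the mutant line, and both overlapped Taf12, a subunit gene of the transcription factor TFIID. Rnu12, which serves the same spliceosome, stood beside regions of fold 13.5 and 14.8, a fold reached by 8.5% and 3.5% of the regions of the lists.

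WDR5 regions were found at Rn7s1 and Rnu11 in the mutant line and at no member in the WT line. In the WT line list 0 of 10 members had a region within 1 kb (exact interval 0 to 30.8%), where 15.4% of all annotated genes had one. In the mutant line list 2 of 10 did (2.52 to 55.6%), against 20.0% of all annotated genes. These 2, Rn7s1 and Rnu11, were also the members with a region within 200 bp, a window in which 14.0% and 18.4% of all genes had one. The background within 1 kb was 27.0% and 30.9% for protein-coding genes, whose greater length admits more regions, 9.3% and 15.9% for other non-coding genes, and 7.4% and 14.3% for short ones outside protein-coding genes. The interval of the members' share includes the share of all genes in both lines. Counting only regions whose −log10 q was 2 or more gave 0 and 1 members, where 2.19% and 2.47% of all genes had such a region.

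The WDR5 region at Rn7s1 was a strong entry of its list. It ran from 69158973 to 69159441 in the mutant line, 469 bp, with a fold of 4.97 and a −log10 q of 13.5, and 1.41% of the regions of that list had a fold as high. The region spanned the 109 bp between Rn7s1 and Rps29 and covered 49.2% of the RNA gene. Its summit, at 69159245, lay between the 2 genes, 50 bp from Rn7s1 and 59 bp from Rps29. The summit was inside the mutant line H3K4me3 region, which ended at 69159267, and outside the WT line one, which ended at 69159197. A further mutant line WDR5 region (fold 2.59, −log10 q 0.271) lay 1017 bp from Rn7s1, just outside the window. In the WT line list the nearest WDR5 region was 47317 bp away.

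The WDR5 region at Rnu11 was weak. It ran from 132269987 to 132270428, covered the whole gene, and had its summit at 132270125, inside the gene. Its fold of 2.34 was below the list median of 2.5, and its −log10 q was 0.252. The nearest H3K4me3 regions were 3.03 and 3.07 kb from it. In the WT line list the nearest WDR5 region was 38492 bp away, at the small nucleolar RNA host gene Snhg12.

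The other members had no WDR5 region nearby in either line. For the 10 members in the WT line the nearest region was 3.37 to 101.55 kb away, with a median of 16.3 kb, and for the 8 others in the mutant line 3.13 to 92.71 kb, with a median of 17.7 kb. Rn7sk had its nearest regions at 14.35 kb (WT line) and 16.18 kb (mutant line), Vaultrc5 at 18.32 and 19.22 kb, and Rnu12 at 101.55 and 43.2 kb. For Rmrp the distances were 37.05 and 92.71 kb and for Rpph1 5.36 and 73.25 kb. All 8 had an H3K4me3 region within 200 bp in both lines, so the mark stood there without a listed WDR5 region nearby. This arrangement, H3K4me3 in both lines and WDR5 in neither, held for 8 of 10 members. It held for 26.2% of all annotated genes, 34.8% of protein-coding genes and 24.9% of other non-coding genes. Among the classes nearer in kind it held for 2 of 9 named spliceosomal and 7SL RNA genes (22.2%) and for 4.71% of transfer RNA genes. These shares also depend on how many genes of a class have H3K4me3 at all.

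**Figure D4:**
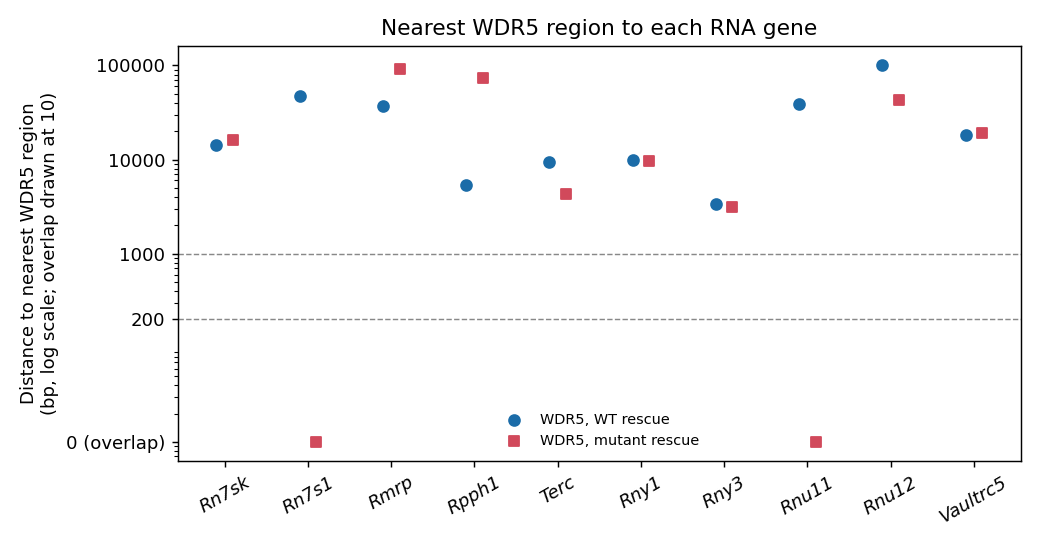
Distance in bp (log scale, overlap drawn at 10) from each RNA gene to the nearest WDR5 region in the WT line (blue circles) and mutant line (red squares) lists, with lines at 200 and 1000 bp. Rn7s1 and Rnu11 in the mutant line are the only points below 1000 bp.

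Near Rny3 and Terc the closest WDR5 regions were a few kb away. On the lower-coordinate side of Rny3 both lists had one, from 47778083 to 47778253 in the WT line (fold 5.35, −log10 q 18.1) and from 47777890 to 47778498 in the mutant line (fold 7.41, −log10 q 37.2). Regions with a fold as high made up 2.34% and 0.8% of the lists. It lay 3371 and 3126 bp from Rny3, overlapped H3K4me3 regions of fold 6.11 and 4.87, and had no annotated gene closer than Rny3. It was also the nearest WDR5 region to Rny1, at 9.82 and 9.57 kb. Near Terc, the mutant line list had a region of fold 3.22 (−log10 q 4.9) over the transfer RNA gene n-THgtg6, 4297 bp away. The nearest WT line region (fold 2.41, −log10 q 0) was 9479 bp from Terc and 209 bp from the transfer RNA gene n-TGccc6.

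Some related RNA genes had WDR5 regions at the gene. Rn7s2, the other annotated 7SL gene, on chromosome 12 (69361183 to 69361481), had a region that overlapped the gene in both lines. In the WT line it ran from 69361413 to 69361604 (fold 3.55, −log10 q 2.69) and in the mutant line from 69361273 to 69361847 (fold 9.34, −log10 q 36.9). Its H3K4me3 regions, of fold 4.29 and 4.26, started 57 and 17 bp outside the gene, as seen beside most of the members. Rn7s1 and Rn7s2 are near-identical copies of the same length, so the assignment of reads from inside them is uncertain, and the values at both genes are too.

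Among spliceosomal RNA genes, Rnu2-10, for U2 RNA, had a WDR5 region overlapping the gene in both lines, of fold 2.16 (−log10 q 0) and 3.3 (−log10 q 2.31). Rnu5g, for U5 RNA, had a region 53 bp away in the mutant line alone (fold 3.82, −log10 q 4.19), and Rnu1a1, for U1 RNA, a region overlapping the gene in the WT line alone (fold 3.41, −log10 q 1.52). Together with Rn7s2 these 3 make up the whole count below, and they were named after their values were seen. Of the 9 named genes for U1, U2, U5, U6, U7 and 7SL RNA, 3 had WDR5 in each line (33.3%, 7.49 to 70.1%) and 6 in each had H3K4me3. Of 58 annotated genes for 5S ribosomal RNA, 7 and 6 had a WDR5 region within 1 kb, led by n-R5s149, with folds of 4.24 and 5.8 for regions overlapping the gene. By fold the next were n-R5s142 (5.45, mutant line alone), n-R5s121 and n-R5s122, which share a WT line region of 5.07, and n-R5s108 (4.45, mutant line alone). Neighbouring 5S genes can share a region and are near-identical in sequence, so these counts are not independent. The 986 remaining annotations of spliceosomal-type small nuclear RNA, most of which carry only a predicted-gene name, had WDR5 at 2.03% and 2.94%.

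Transfer RNA genes, transcribed by the same polymerase as 7 of the members, had a WDR5 region within 1 kb at 29.3% (24.9 to 34.0%) of 403 genes in the WT line and 69.5% (64.7 to 73.9%) in the mutant line. Among the 7 polymerase III members the counts were 0 and 1. Small nucleolar RNA genes had 5.41% and 4.81%, and microRNA genes 4.48% and 4.72%. The members' intervals, 0 to 30.8% and 2.52 to 55.6%, include the shares of small nucleolar RNA and microRNA genes in both lines and the WT line share of transfer RNA genes, and lie below the mutant line share of transfer RNA genes. The interval of the 9 named relatives, 7.49 to 70.1% in each line, includes the shares of all annotated genes (15.4% and 20.0%). It lies above the intervals of small nucleolar RNA genes (4.26 to 6.77% and 3.73 to 6.1%) and of microRNA genes (3.39 to 5.79% and 3.61 to 6.06%). The other small nuclear RNA annotations (1.24 to 3.12% and 1.98 to 4.2%) also lie below it. These intervals cover counting error only. The gene lists were chosen knowing earlier results of these data, so the separation is not a test of a difference. Under the stricter −log10 q threshold of 2, the relatives' count was 1 in the WT line and 3 in the mutant line. The WT line interval above thus counts the regions at Rnu2-10 and Rnu1a1, which fall below that threshold. Intervals were not compared at that threshold.

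**Figure D5:**
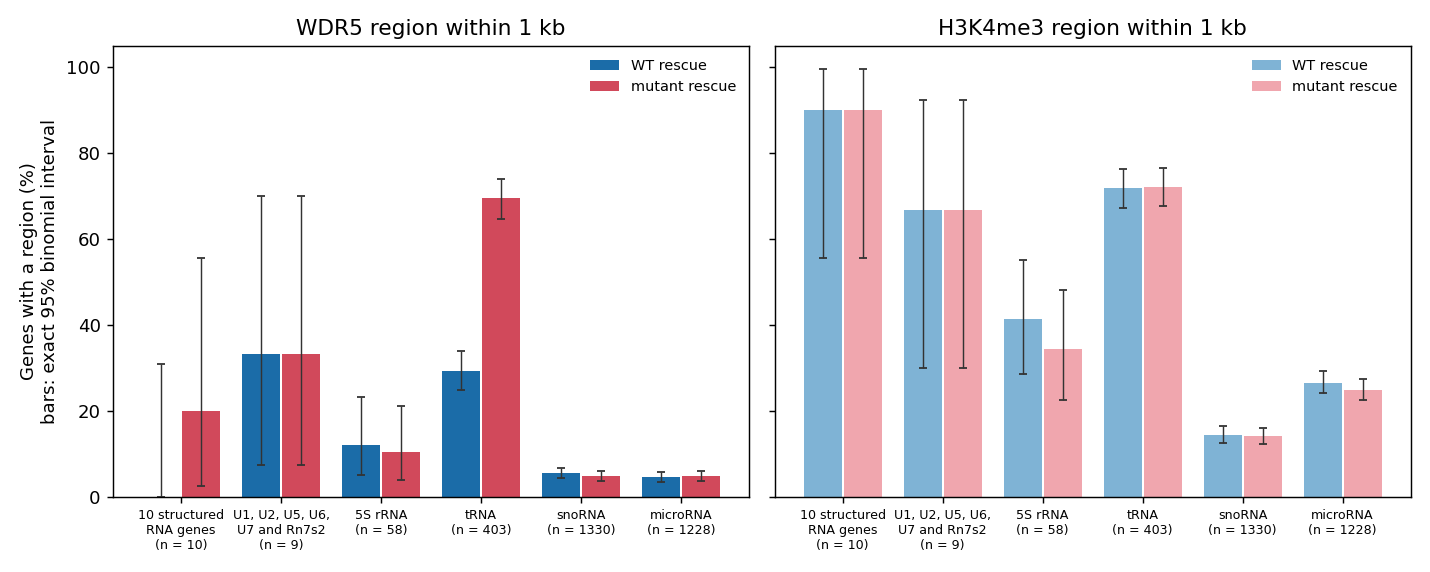
Percent of genes with a WDR5 region (left) and an H3K4me3 region (right) within 1 kb, for 6 classes of small RNA genes in the WT and mutant line lists, with exact 95% binomial intervals that cover counting error only. Transfer RNA genes have WDR5 at 29.3% and 69.5%, and the 10 members at 0% and 20.0%.

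The protein partners of these RNAs and the machinery that transcribes or processes them were described as 10 lists with 101 genes, of which 100 were in the annotation. H3K4me3 lay within 1 kb of an end of 98 of 100 in both lines, where 68.8% and 68.0% of all protein-coding genes had it. WDR5 lay there for 30 of 100 in the WT line and 18 of 100 in the mutant line, with 10 in both, beside 16.4% and 10.8% of protein-coding genes. At a −log10 q of 2 or more these were 4 and 3 genes, beside 2.36% and 1.73%. The protein-coding shares include genes without H3K4me3. The WDR5 share among protein-coding genes with the mark was not counted.

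Telomerase genes had the highest share in the WT line, 6 of 10, against 1 of 10 in the mutant line. Gar1, a subunit of the H/ACA particle that stabilises Terc, was in both lists (fold 3.03 and 3.04), and Tert, the catalytic subunit (2.8), Naf1 (2.79) and Nhp2 (2.57) in the WT line alone. None of the 6 had a −log10 q of at least 2. For the 7SK particle and P-TEFb the counts were 2 and 0 of 7. The 7SK capping enzyme gene Mepce had a WT line region of fold 4.59 (−log10 q 7.0) that lay at Zcwpw1, outside Mepce, and the kinase gene Cdk9 had 2.28 (−log10 q 0.0232). Genes of the signal recognition particle and its receptor gave 2 and 3 of 8. Among them the receptor subunit gene Srpr (3.65 and 3.85, −log10 q 2.41 and 3.51) was in both lists. Its regions lay within 200 bp of the neighbouring gene Foxred1, and the mutant line one also within 200 bp of Srpr. Srp19 was in both lists at opposite ends of the gene (2.43 and 2.66), and Srp68 (2.76) in the mutant line alone.

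RNase P and MRP protein genes gave 3 and 1 of 11, none with a −log10 q of at least 2. These were Rpp14 (2.49), Rpp25 (2.4) and Pop1 (2.25) in the WT line and Rpp38 (2.46) in the mutant line. Minor spliceosome protein genes gave 3 and 1 of 12, led by Snrnp48 (3.64 and 2.89), then Zcrb1 (3.07) and Zmat5 (2.98) in the WT line. Of the Y RNA binding genes 1 and 0 of 3 had a region, at Ssb, which encodes the La protein (2.76), and of the vault genes 0 and 0 of 3.

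In the transcription machinery, RNA polymerase III subunit genes gave 3 and 5 of 13, with Polr1c (3.17 and 1.96) and Crcp (2.9 and 2.21) in both and Polr3f (3.33) in the WT line alone. Polr3e had the highest fold, 4.09 (−log10 q 5.63) in the mutant line, at a region that overlapped the transfer RNA gene n-TLaag4. Polymerase III factors and SNAPc gave 6 and 3 of 19. The highest there was Gtf3c6 (3.74 and 3.26), whose region lay within 200 bp of Rnu3a, a U3 RNA gene. Gtf3c1 (2.54 and 3.31) followed in both lists, and Snapc4 (3.13) and Gtf3c4 (3.06) in the WT line alone. Integrator subunit genes, whose products process the 3′ ends of spliceosomal RNAs made by polymerase II, gave 4 and 4 of 14. Ints5 led in both (4.94 and 6.36, −log10 q 7.87 and 18.7), then Ints12 (3.22) and Ints13 (2.81) in the WT line and Ints10 (2.69 and 1.95) in both.

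The values over the 4 lists were also compared with those of other genes. The measure was Euclidean distance over log2(fold + 1) of the strongest region within 1 kb, with 0 where there was none. Transfer RNA genes and genes sharing the member's region were left out of this search. For Rn7s1 it covered 3311 non-coding and 9524 protein-coding genes. For Rn7s1 the nearest protein-coding genes were Fkbp4, a co-chaperone gene (distance 0.13), Fmc1 (0.25) and Shh, the Sonic hedgehog ligand gene (0.27). Their mutant line WDR5 folds were 4.62, 4.39 and 4.03. The nearest non-coding genes were Gm23851 (0.25), Gm31633 (0.46) and Gm34755 (0.48). The WDR5 regions of Fmc1 and Gm31633 overlapped a transfer RNA gene. WDR5 in the mutant line alone with H3K4me3 in both lines, the presence pattern of Rn7s1, was shared by 8.74% of all genes, and by 0.684% when the WDR5 region had to have a −log10 q of at least 2. Among transfer RNA genes the latter share was 35.7%. For Rnu11, whose pattern is a weak mutant line WDR5 region without H3K4me3, the nearest were Gm26747, Gm51282 and Gm35935, and the protein-coding genes Tmprss11g, Vmn2r76 and Ecm2. All were at a distance of 0.0 and so shared the WDR5 fold of 2.34. The order among such ties carries no meaning. That presence pattern was shared by 3.07% of all genes, and by 0.0847% at a −log10 q of at least 2, which Rnu11 did not reach.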

How the data were processed

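ChIP-seq peak lists of 4 libraries (WDR5 and H3K4me3 in each of 2 lines) were used. Groups came from the sample titles. The submitters' processing notes name mm10, MACS2 2.1.2, Picard, SAMtools and the aligner BWA (0.7.17-r1188); settings and the control used are not given in the sources used here. Each deposited list gives, in the authors' units, a fold ratio at the summit, a −log10 p and a −log10 q; the deposited score was not used. The summit offset and positions were taken as deposited, written 1-based.

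Genes came from a RefSeq table on GRCm38.p6, whose chromosome coordinates are those of mm10. Entries on unplaced or patch scaffolds and on the mitochondrial chromosome were left out, which kept 49595 of 49997. Distance runs from the nearest edge of a gene to the nearest edge of a region, and a member counts as occupied within 1 kb (200 bp as the narrow window); protein-coding lists used either gene end. The table gives no strand. Alternatives tried were stricter q and p thresholds, lists of equal length, leaving out narrow strong regions, and other windows. Shares have exact (Clopper-Pearson) 95% intervals, which cover counting error only. The code that finds regions at gene ends was checked on simulated data: 200 of 200 planted genes among 21774 protein-coding genes were found. All regions were planted inside the window, so the check covers coding errors only. The counts over whole genes, used for the members, were not checked this way. Python 3.11.15, numpy 2.4.6, pandas 2.3.3, scipy 1.17.1 and matplotlib 3.10.9 were used.

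No comparison was tested, since no group has more than 1 library. Members and gene lists were chosen with earlier results of these data known. The genes named are all members, their nearest protein-coding genes, up to 4 genes of each partner list and up to 6 related RNA genes with a WDR5 region by fold, and the 3 nearest non-coding and protein-coding genes by the 4 fold values. Transfer RNA genes and genes sharing a member's region were left out of that last search. The U1, U2 and U5 genes were named outside this rule. Promoter sequences of the members themselves were not used here; none of the 10 matched the promoter table, and 3 neighbouring windows did.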

Additional observations from a re-analysis of the deposited data

How the results depend on the processing

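The 8 counts of genes with a region within 1 kb were recomputed under 8 alternatives, and 46 of 64 values stayed within 1.5 times the main count. No paired analysis was possible because each antibody and line has 1 library, and for the same reason no replicate could be left out. The WT line count of members with WDR5 was 0 under all 8, but only the 2.5 kb window could have raised it. These unchanged values are part of the 46. In the mutant line it was 1 (Rn7s1) in place of 2 when −log10 q had to reach 2, and 1 with a −log10 p of at least 5. Members with H3K4me3 numbered 9 in both lines under 7 alternatives; requiring overlap with the gene left 3 in the WT line and 4 in the mutant line. Partner genes with WDR5, 30 and 18, fell to 4 and 3 at that −log10 q, to 10 and 6 at that −log10 p, to 9 and 7 when a region had to overlap a gene end and to 17 and 10 within 200 bp; cutting the lists to equal length gave 11 in the mutant line. The 67 related RNA genes gave 10 and 9 with WDR5, and 4 and 4 on overlap, 4 within 200 bp in the WT line, and 17 and 18 within 2.5 kb. Stricter thresholds and narrower windows keep fewer regions by construction. Depth per library is unknown, and the WDR5 lists differ in length.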
